A study of Homo sapiens with 6 samples.

Results

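Sphingolipid metabolism was examined through 41 genes of sphingolipid synthesis, breakdown and signalling, named by symbol, among the 24294 loci of a gene expression table. Each gene had 1 row in the table, and 33 of the 41 reached a mean of 1 FPKM (fragments per kilobase of transcript, scaled to the mapped fragments of the library) over the 6 libraries and were tested. The set was drawn up around SMPD1, the gene of acid sphingomyelinase, whose lower level in miR-424 cells was already known from these data. Its values are therefore given as a description without a test. Just inside the minimum of 1 FPKM lay ACER2 at a mean of 1.25 FPKM and S1PR1 at 1.13 FPKM, and just outside it S1PR2 at 0.823 FPKM and S1PR5 at 0.530 FPKM.

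The samples were MCF12A cells, an immortalized line from human mammary epithelium, listed as breast cancer cells in the labels. One group of 3 samples stably over-expressed the microRNA miR-424 and the other group of 3 stably carried an empty vector (EV), and both were grown as 3 cultures each for 48 hours before total RNA was taken and mRNA libraries were made. The promoter of the construct, and whether a line was a clone or a pool, could not be read from the sources. Nothing says that the 3 samples of a group came from separate derivations of the line, so p-values measure only how these samples vary, and that variation may be technical.

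Sphingolipids are built on a backbone that serine palmitoyltransferase makes in the endoplasmic reticulum and that ceramide synthases turn into ceramide. Ceramide is the hub of the pathway: it is converted to sphingomyelin or to glycosphingolipids, and sphingomyelinases and ceramidases take these products apart again, in part in the lysosome. Sphingosine released from ceramide can be phosphorylated to sphingosine 1-phosphate (S1P), which acts through cell-surface receptors or is degraded. In epithelial cells sphingomyelin and glycosphingolipids are abundant in the outer layer of the plasma membrane.

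The microRNA and the matching sites in transcripts of the pathway are shown first, because they are the sequences that the design addresses. The seed of a microRNA, its bases 2 to 8, pairs with the complementary 7 bases in a messenger RNA, usually in the 3' untranslated region (UTR). Mature sequences are from RefSeq (GRCh38.p14), with the seed in capitals. The mature miR-424-5p lies at chrX:134546680-134546701 on the minus strand, and miR-16-5p is shown as a well-known microRNA with the same seed.
hsa-miR-424-5p: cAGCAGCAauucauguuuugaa
hsa-miR-16-5p: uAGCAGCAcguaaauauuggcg

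In all 7 mature microRNAs of the RefSeq table carried this seed (miR-15a-5p, miR-15b-5p, miR-16-5p, miR-195-5p, miR-424-5p, miR-497-5p and miR-6838-5p). The matching letters in a transcript are TGCTGCT, searched on the sense strand, with overlapping matches counted. Of the 33 tested members, 32 had a 3' UTR of at least 30 nt in GENCODE 29 (GRCh38), and SMPD2 did not. A match was found in the longest 3' UTR of 7 of the 32 members (21.9%), against 2694 of 10694 tested loci (25.2%). With the other common form of match, GCTGCTA (bases 2 to 7 of the microRNA and then an A), the order was reversed, with 6 of 32 members (18.8%) against 1107 loci (10.4%). The members with a TGCTGCT match were KDSR, CERS6, SGMS2, SMPD1, ACER3, SGPL1 and GALC. These 7 include SMPD1, around whose known fall the set was drawn up. Those with a GCTGCTA match were SPTLC3, KDSR, ORMDL1, SPHK2, GBA2 and GALC. The median length of these UTRs was 1525 nt for the members and 1382 nt for the tested loci.

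SMPD1 carried 2 matches in a 3' UTR of 388 nt, at bases 60 to 66 and 331 to 337 counted from the base after the stop codon. The shortest 3' UTR annotated for the gene, of 171 nt, holds 1 match. Among all 1687 tested loci whose longest 3' UTR had at most 388 nt, 14 (0.830%), SMPD1 included, had 2 or more matches. Both limits were taken from SMPD1 after its sites were seen, so this comparison is a description and not a test. Over all tested loci the share was 7.61%. KDSR and SGPL1 also had 2 matches each, in UTRs of 4056 and 3838 nt. The windows below are 23 bases of mRNA sequence, 5' to 3', with the match in capitals, and they show the sites of SMPD1 beside sites of 3 other members. The first of the KDSR matches and the GALC match are followed by an A, and the second KDSR match, which is not shown, is not. A following A is a feature of sites that are often more effective.
SMPD1, first match, chr11:6394653-6394675, plus strand: tgaaaaagcccaaaTGCTGCTgt
SMPD1, second match, chr11:6394924-6394946, plus strand: caggaaccctgtacTGCTGCTgc
KDSR, first match, chr18:63331725-63331747, minus strand: taatttgaacagctTGCTGCTaa
SGPL1, first match, chr10:70880433-70880455, plus strand: ttctgcttacagttTGCTGCTta
SGPL1, second match, chr10:70880868-70880890, plus strand: tctggggtgcttatTGCTGCTcc
GALC, chr14:87934428-87934450, minus strand: agacctcgaagcctTGCTGCTaa

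These coordinates are GRCh38, whereas loci of the expression table are given below in hg19. A match is a description of letters and does not show binding. SMPD1 was not tested, and none of the 6 other members with a TGCTGCT match passed the test described below. The log2 changes of these 6 lay between -0.19 in KDSR and SGMS2 and 0.08 in GALC.

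The libraries were checked before the pathway was read. The summed FPKM of a library lay between 409776 and 424564. The host locus of the microRNA, listed as MGC16121/MIR424, read 0.989, 1.27 and 1.23 FPKM in EV replicates 1, 2 and 3 and 107, 106 and 224 FPKM in miR-424 replicates 1, 2 and 3. MiR-424 replicate 3 stood apart: its median absolute log2 difference was 0.142 from replicate 1 and 0.152 from replicate 2, while those differed by 0.0408. Among the 33 tested members, replicate 3 was the lowest of the 6 libraries for 15 and the highest for 4. Median deviations from the EV mean also followed the GC content of the transcripts. Loci under 45% GC lay at 0.04 and 0.05 in miR-424 replicates 1 and 2 and at -0.18 in replicate 3, and loci over 55% GC at -0.08, -0.10 and -0.05. Of 8 markers of mammary epithelium 7 had a mean of at least 1 FPKM, with summed levels of 512 to 528 FPKM in EV against 469 to 526 FPKM in miR-424 cells, and TP63 was at most at 0.192 FPKM. Of these markers KRT14 passed as higher and KRT5 and ITGB4 as lower, and the part of such differences in the results was not tested. Of 6 fibroblast markers 2 reached 1 FPKM, FAP and decorin (DCN), the latter at 118 to 138 FPKM, and summed levels were 130 to 138 and 132 to 155 FPKM. PDGFRA reached at most 0.0342 FPKM and the collagen gene COL1A2 at most 0.0226 FPKM. Of 6 leukocyte markers 2 reached 1 FPKM (CD68 and LYZ), with sums of 55.9 to 58.9 and 54.1 to 60.1 FPKM, PTPRC at most at 0.0679 FPKM and MS4A1 listed at 0. None of 5 endothelial markers reached 1 FPKM. In such bulk samples fewer expressing cells and less RNA per cell cannot be told apart.

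SMPD1 was the member with the largest log2 change. The set was drawn up around its known fall, so this rank is not a finding. Of the 31 tested members other than SMPD1 and S1PR1, UGCG rose and SMPD4 and CERS4 fell in miR-424 cells. S1PR1 also passed the test, but it reached the minimum for testing only through the miR-424 group, so it is left out of the count. Groups were compared with limma on log2(FPKM + 1) over all 11574 loci that reached the mean of 1 FPKM, with Benjamini-Hochberg adjustment over these loci and a threshold of 0.05. Log2 changes are on this scale, which understates the change of low genes, whereas ratios and percent differences are of mean FPKM. The 3 of 31 members (9.68%) stand beside 7.56% of all tested loci, of which 1.24% were higher and 6.32% lower in miR-424 cells. The median log2 change was -0.0047 over the 31 members and -0.05 over all tested loci, and 13 of the 31 differed by less than 0.1 in absolute terms. The balance of calls among all loci depended on scaling, since 16.5% of the called loci were higher with the values as deposited and 38.4% with median-of-ratios scaling.

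**Figure D1:**
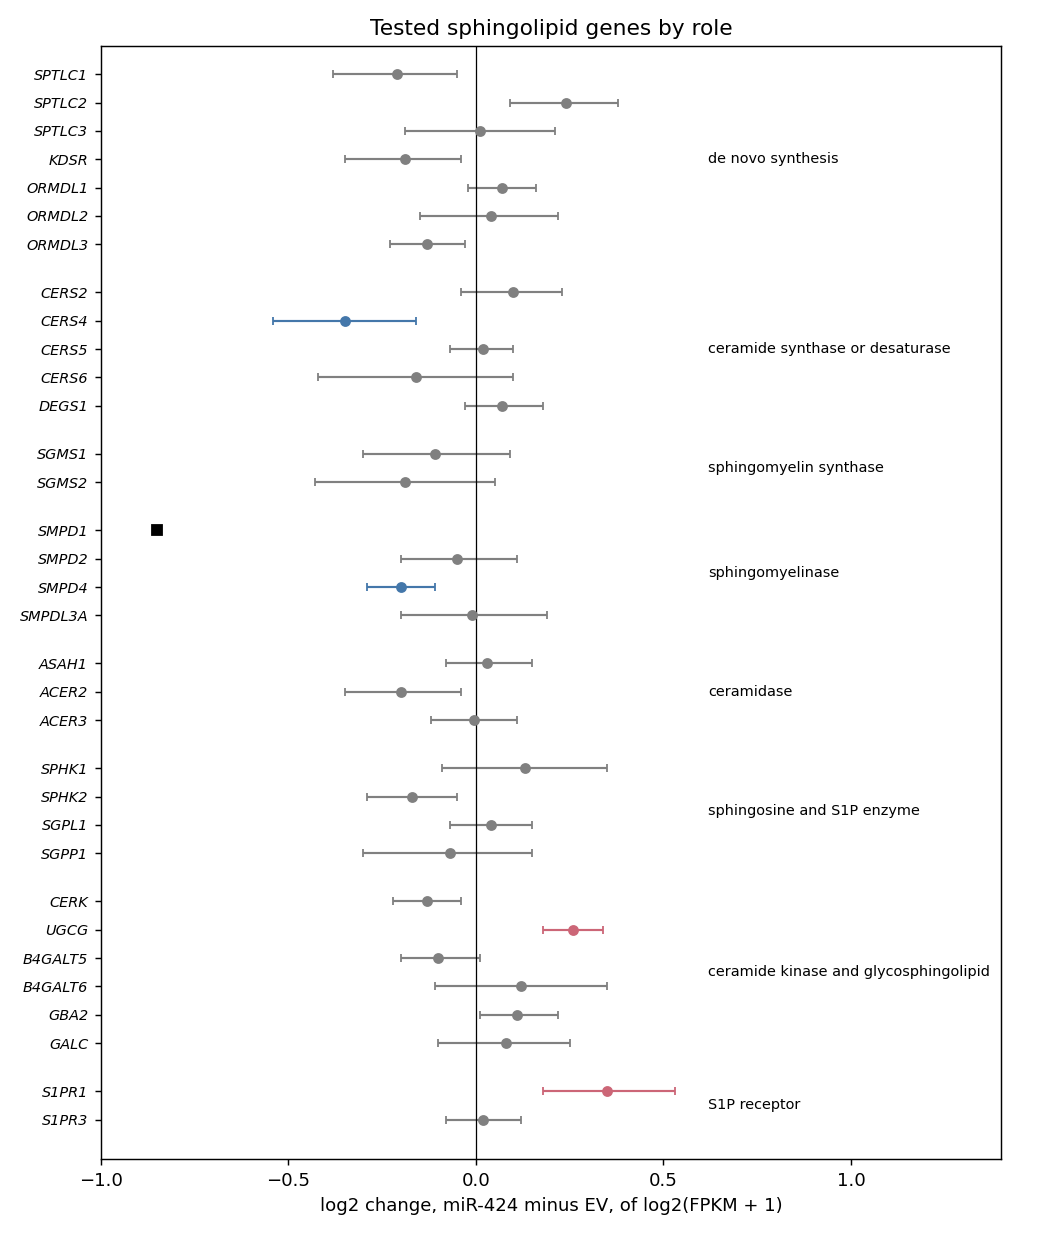
Log2 change (miR-424 minus EV, x axis) of the 33 tested members, grouped by role, with 95% confidence intervals from limma; red points were higher and blue points lower at an adjusted p under 0.05, grey points did not pass, and the black square is SMPD1, shown without an interval because it was not tested. UGCG and S1PR1 lie on the right, CERS4 and SMPD4 on the left, and SMPD1 stands furthest left at -0.85. S1PR1 is coloured but left out of the counts, because it reached the minimum for testing only through the miR-424 group.

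Acid sphingomyelinase, the lysosomal and secreted enzyme that cleaves sphingomyelin to ceramide, differed little between the libraries of a group. SMPD1 (chromosome 11, 6411643 to 6416228, hg19) read 7.07, 7.11 and 7.28 FPKM in EV replicates 1, 2 and 3 and 3.71, 3.33 and 3.56 FPKM in miR-424 replicates 1, 2 and 3. The groups did not overlap, and the lowest EV library lay well above the highest miR-424 library. The means were 7.15 ± 0.11 and 3.54 ± 0.19 FPKM (SD, n = 3), a ratio of 0.494, and the log2 change was -0.85. MiR-424 replicate 3, which stood apart over loci as a whole, lay between the other miR-424 libraries for this gene. The transcript is 60.2% GC, and with the GC trend removed from each library the log2 change was -0.77.

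The other tested genes of the sphingomyelinase group had smaller log2 changes than SMPD1, around whose known fall the set was drawn up. SMPD4, a neutral sphingomyelinase of the endoplasmic reticulum and nuclear envelope (chromosome 2, 130908964 to 130948300), read 31.9, 32.1 and 31.0 FPKM in EV against 27.9, 26.6 and 27.9 FPKM in miR-424 replicates 1, 2 and 3. It fell by 13.3%, with a log2 change of -0.20 ± 0.04 (SE; limma adjusted p = 0.0295), and the groups did not overlap. The call ended without EV replicate 1, 2 or 3 (limma adjusted p = 0.149, 0.165 and 0.120), without miR-424 replicate 1 or 2 (0.0827 and 0.0921), with the replicate block (0.0999) and with median-of-ratios scaling (0.148, log2 change -0.14) or quantile normalization (0.110). The transcript is 60.5% GC, and the log2 change was -0.12 with the GC trend removed (limma adjusted p = 0.0406). SMPD4 has pseudogene copies, SMPD4P1, SMPD4P2 and SMPD4BP in RefSeq, and overlaps the locus of MZT2B, so its value is uncertain.

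SMPD2, another neutral sphingomyelinase, read 4.51, 5.48 and 4.95 FPKM in EV against 4.71, 4.78 and 4.85 FPKM in miR-424 replicates 1, 2 and 3. All 3 miR-424 libraries lay within the EV range. The transcript is 60.8% GC. Its log2 change was -0.05 with a 95% interval of -0.20 to 0.11. SMPDL3A, a phosphodiesterase related to SMPD1 in sequence that acts on nucleotides, was at 1.55 ± 0.19 and 1.54 ± 0.22 FPKM (SD, n = 3; 95% interval of the log2 change -0.20 to 0.19). SMPD3, the ceramide-producing enzyme linked to exosome release, had a mean of 0.325 FPKM and its relative SMPDL3B one of 0.0727 FPKM, and neither was tested.

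**Figure D2:**
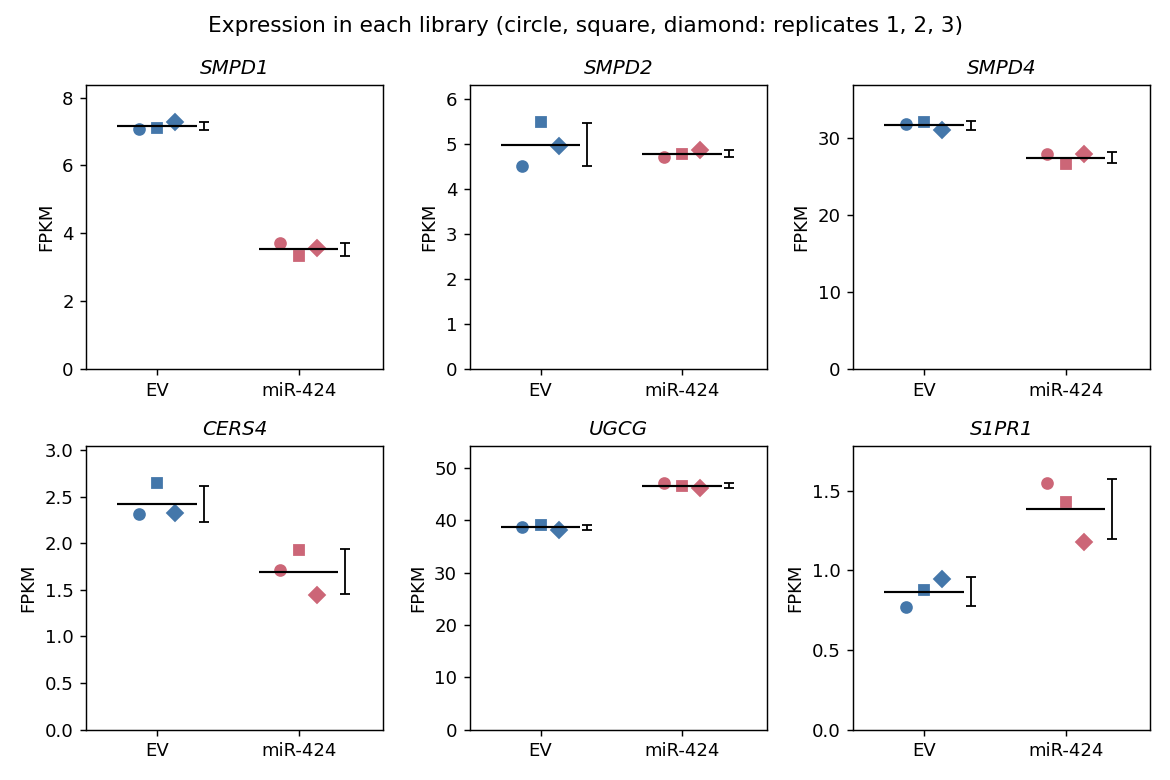
FPKM (y axes, from 0) of SMPD1, SMPD2, SMPD4, CERS4, UGCG and S1PR1 in each library; symbols are the 3 replicates of EV (blue) and miR-424 (red) cells, horizontal lines are group means and bars are the SD (n = 3). The groups are separate for all these genes except SMPD2, and SMPD1 shows the widest gap relative to its level.

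The make-up of the sphingomyelinase transcripts shifted with SMPD1. Of the FPKM summed over SMPD1 to SMPD4, SMPD1 held 16.1%, 15.8% and 16.7% in EV replicates 1, 2 and 3 and 10.1%, 9.51% and 9.75% in miR-424 replicates 1, 2 and 3. SMPD4 held 71.7% ± 0.88 in EV and 76.1% ± 0.22 in miR-424 cells (SD, n = 3), although its own level fell. The summed level was 44.2 ± 0.76 FPKM in EV against 36.1 ± 0.87 FPKM in miR-424 cells. These shares describe mRNA and were not tested, since SMPD1 enters each of them. By these values SMPD4 was the main sphingomyelinase transcript in both groups. Its value is uncertain, as stated above, so the shares and the sum that include it are uncertain too. SMPD1 exceeded SMPD2 in every EV library, and SMPD2 exceeded SMPD1 in every miR-424 library.

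**Figure D3:**
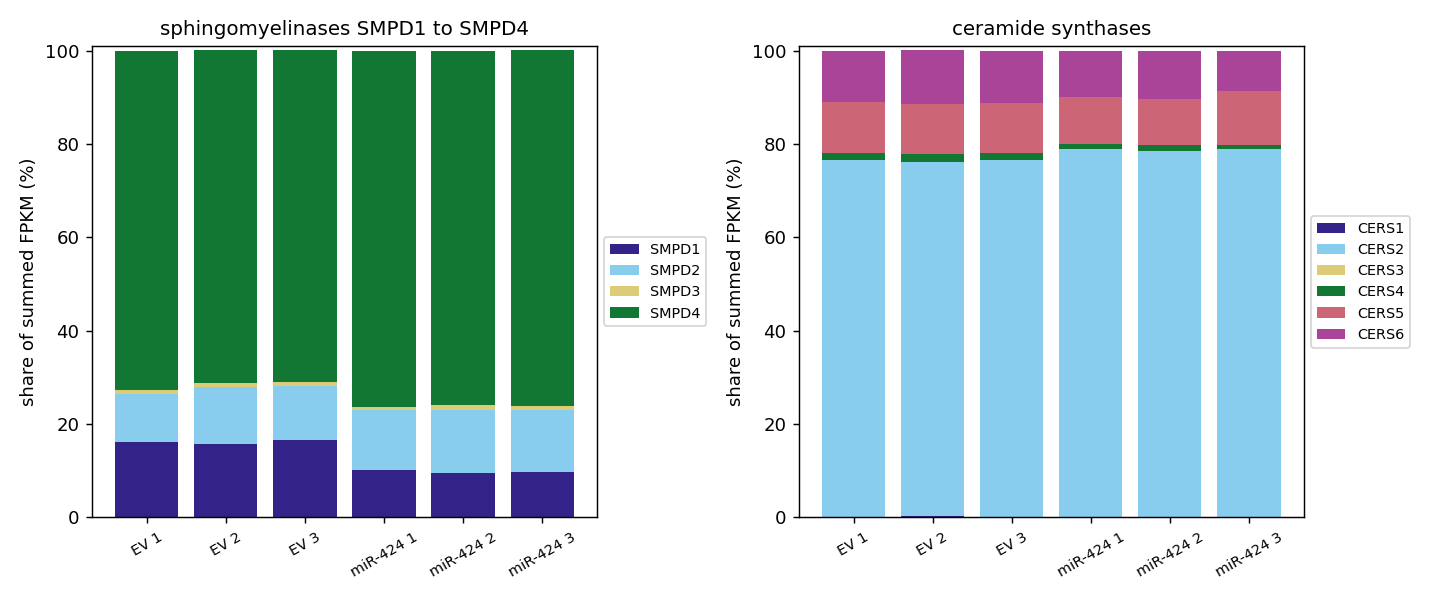
Share of summed FPKM (y axes, %) held by each member of the sphingomyelinase genes SMPD1 to SMPD4 (left) and of the ceramide synthase genes CERS1 to CERS6 (right), with 1 stacked bar per library. The SMPD1 segment is 15.8% to 16.7% in EV and 9.51% to 10.1% in miR-424 libraries, while CERS2 holds 75.9% to 78.9% of the ceramide synthase FPKM in all 6.

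Ceramide synthases attach fatty acids of different lengths, and CERS2, which favours very long chains, was the most highly expressed of the 41 genes. It read 119, 118 and 118 FPKM in EV against 133, 131 and 116 FPKM in miR-424 replicates 1, 2 and 3. Replicates 1 and 2 were above every EV library and replicate 3 below them, and the log2 change of 0.10 ± 0.06 did not pass (SE; limma adjusted p = 0.380). Without miR-424 replicate 3 it was 0.16 (limma adjusted p = 0.000959). CERS2 held 76.3% ± 0.32 of ceramide synthase FPKM in EV and 78.7% ± 0.21 in miR-424 cells (SD, n = 3).

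CERS4, a ceramide synthase of long and very long chains (chromosome 19, 8274216 to 8327304), was a minor transcript. It read 2.31, 2.65 and 2.32 FPKM in EV against 1.71, 1.93 and 1.45 FPKM in miR-424 replicates 1, 2 and 3, with no overlap. It fell by 30.2%, with a log2 change of -0.35 ± 0.08 (SE; limma adjusted p = 0.0450), close to the threshold. The call ended without EV replicate 1, 2 or 3 (limma adjusted p = 0.142, 0.178 and 0.141), without miR-424 replicate 1 (0.119), with no filter (0.0769), with quantile normalization (0.0526) and with the GC trend removed (0.0878, log2 change -0.27). Its transcript is 60.9% GC, and the log2 change was -0.19 with that trend removed and without miR-424 replicate 3, a setting chosen after seeing the data (limma adjusted p = 0.0776).

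CERS5 and CERS6, which favour shorter chains, were at similar levels to each other. CERS5 was at 16.7 ± 0.16 FPKM in EV against 16.9 ± 0.16 FPKM in miR-424 cells (SD, n = 3), with a narrow 95% interval of the log2 change from -0.07 to 0.10. CERS6 read 16.9, 17.6 and 17.3 FPKM in EV against 16.9, 17.1 and 12.6 FPKM in miR-424 replicates 1, 2 and 3, so that only replicate 3 was low. DEGS1, the desaturase that completes ceramide, was at 56.7 ± 0.51 and 59.7 ± 2.88 FPKM and did not pass (limma adjusted p = 0.389). CERS1, CERS3, and DEGS2, which makes phytoceramide in skin and gut, had means of 0.250, 0.000894 and 0.0548 FPKM and were not tested.

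**Figure D4:**
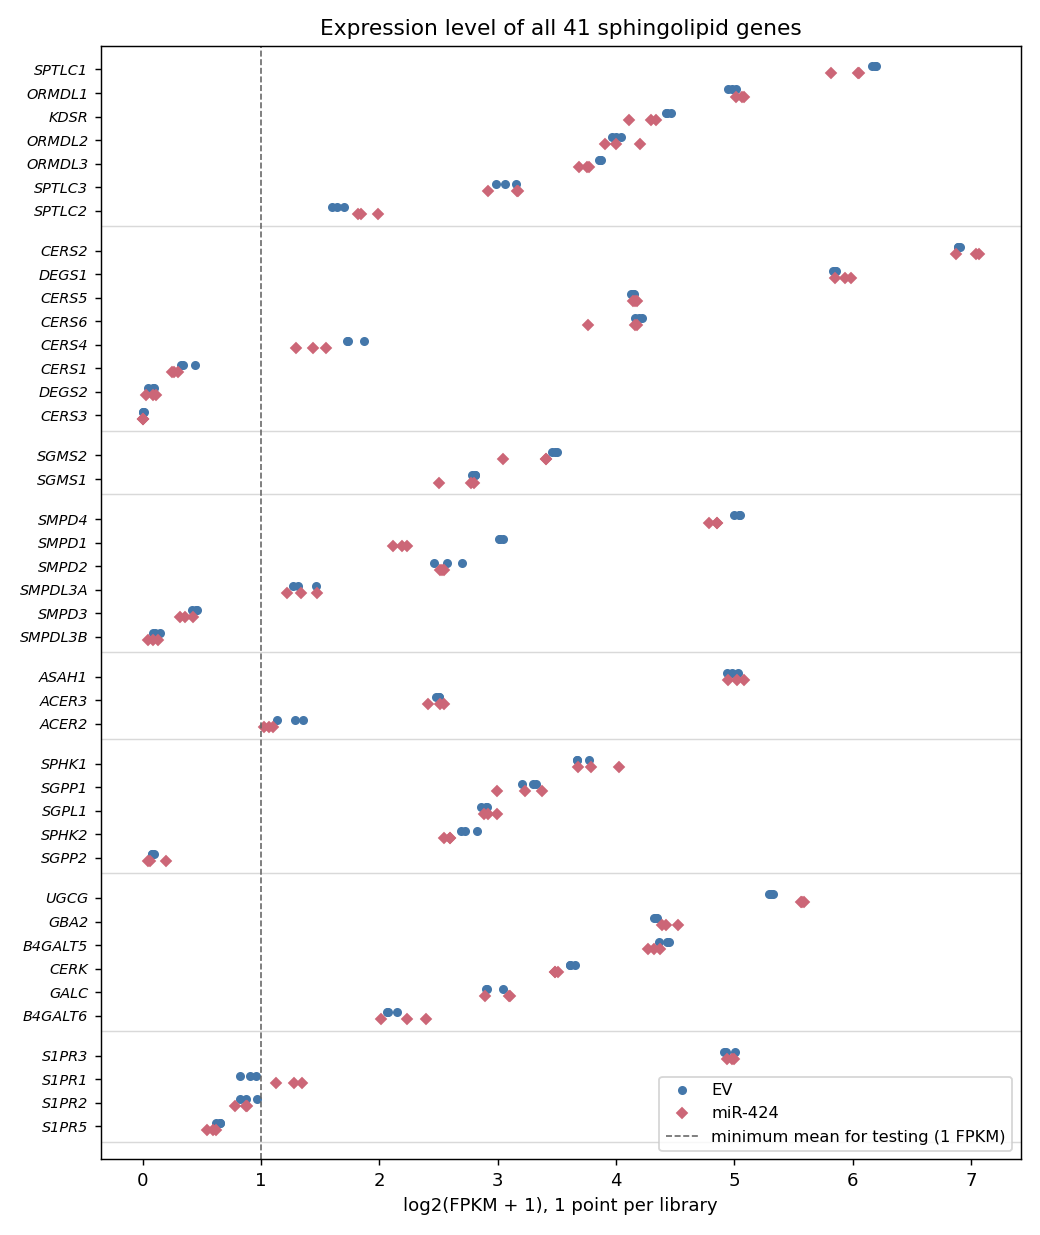
Level of all 41 members as log2(FPKM + 1) (x axis), with 1 point per library (blue circles EV, red diamonds miR-424), grouped by role and ordered by mean within a role; the dashed line marks 1 FPKM, the minimum mean for testing. Levels run from near 0 for CERS3 to between 116 and 133 FPKM for CERS2.

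All 7 members of de novo synthesis were tested and none was called, with a median log2 change of 0.01. SPTLC1, the shared subunit of serine palmitoyltransferase, was the highest of them at 72.3, 72.2 and 70.7 FPKM in EV against 65.6, 65.2 and 55.3 FPKM in miR-424 replicates 1, 2 and 3. Every miR-424 library lay below every EV library, replicate 3 furthest, and the log2 change of -0.21 ± 0.07 did not pass (SE; limma adjusted p = 0.126). Without miR-424 replicate 3 it was smaller, at -0.13, and passed (limma adjusted p = 0.00305). KDSR, the reductase of the next step, was also lower in every miR-424 library, with 20.7 ± 0.36 and 18.0 ± 1.53 FPKM (SD, n = 3) and a limma adjusted p of 0.125. The catalytic subunit SPTLC2 was low, with 2.13, 2.25 and 2.04 FPKM in EV against 2.60, 2.98 and 2.54 FPKM in miR-424 replicates 1, 2 and 3. Its groups did not overlap and its log2 change was 0.24 ± 0.06 (SE; limma adjusted p = 0.0631). With the GC trend removed SPTLC1 and KDSR were called lower (limma adjusted p = 0.0122 and 0.0234) and SPTLC2 higher (0.02).

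SPTLC3, the alternative catalytic subunit, exceeded SPTLC2 in every library and did not differ between the groups beyond their spread (7.41 ± 0.49 and 7.49 ± 0.82 FPKM, SD, n = 3). SPTLC2 accounted for 22.4% of the FPKM of both catalytic subunits in EV and for 26.6% in miR-424 cells. The ORMDL proteins restrain serine palmitoyltransferase when ceramide is plentiful. ORMDL1 was at 30.7 ± 0.75 and 32.2 ± 0.71 FPKM and ORMDL3 at 13.6 ± 0.07 and 12.4 ± 0.42 FPKM in EV and miR-424 cells (SD, n = 3). ORMDL2 had a log2 change of 0.04. Of these ORMDL3 had the smallest adjusted p (0.110 from limma). The loci of ORMDL1 and ORMDL2 overlap those of PMS1, and of DNAJC14 and MMP19, and may share reads with them.

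Sphingomyelin synthases, which make the substrate of SMPD1 from ceramide, were not called. SGMS2, the plasma membrane enzyme, read 10.3, 10.2 and 10.0 FPKM in EV against 9.60, 9.65 and 7.26 FPKM in miR-424 replicates 1, 2 and 3. The Golgi enzyme SGMS1 read 6.02, 5.99 and 5.87 FPKM and 5.84, 5.97 and 4.68 FPKM in the same order. In both genes replicate 3 was well below replicates 1 and 2, and the 95% intervals of the log2 change, -0.43 to 0.05 and -0.30 to 0.09, include falls of a size that passed the test in other members. Without miR-424 replicate 3 the log2 change was -0.07 for SGMS2 (limma adjusted p = 0.0864) and -0.01 for SGMS1. With all libraries and the GC trend removed SGMS2 was called lower (log2 change -0.17; limma adjusted p = 0.0165).

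Ceramidases release sphingosine from ceramide, and acid ceramidase (ASAH1) works in the lysosome on the product of SMPD1. ASAH1 read 31.7, 29.7 and 30.6 FPKM in EV against 31.6, 32.8 and 29.9 FPKM in miR-424 replicates 1, 2 and 3. The groups overlapped, and the 95% interval of the log2 change was -0.08 to 0.15. ACER3, an alkaline ceramidase, was at 4.64 ± 0.07 and 4.62 ± 0.27 FPKM (SD, n = 3). The Golgi ceramidase ACER2 read 1.56, 1.44 and 1.2 FPKM in EV against 1.14, 1.09 and 1.04 FPKM in miR-424 replicates 1, 2 and 3. Its groups were separate by a small margin and its log2 change of -0.20 ± 0.07 did not pass (SE; limma adjusted p = 0.131).

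UGCG, the glucosylceramide synthase that directs ceramide into most glycosphingolipids, rose. The locus (chromosome 9, 114659205 to 114695433) read 38.7, 39.2 and 38.2 FPKM in EV against 47.2, 46.5 and 46.2 FPKM in miR-424 replicates 1, 2 and 3. All 6 values were close to their group mean and the groups were far apart. The rise was 20.5%, a log2 change of 0.26 ± 0.03 (SE; limma adjusted p = 0.00867). It passed in 12 of 15 alternative settings, in which the adjusted p ran from 0.000301 to 0.0721. The call ended without EV replicate 1, 2 or 3 (limma adjusted p = 0.0650, 0.0679 and 0.0721). The transcript is 40.9% GC, and with the GC trend removed the log2 change was 0.29 (limma adjusted p = 0.0228).

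The enzymes next to UGCG did not pass with the values as deposited. B4GALT5 and B4GALT6 add galactose to make lactosylceramide, and B4GALT5 was the main one at 20.3 ± 0.61 FPKM in EV against 19.0 ± 0.70 FPKM in miR-424 cells (SD, n = 3), against 3.27 ± 0.14 and 3.67 ± 0.61 FPKM for B4GALT6. GBA2, which removes glucose from glucosylceramide outside the lysosome, was higher in every miR-424 library (20.0, 20.5 and 22.0 FPKM) than in any EV library (19.3, 19.2 and 19.0 FPKM), but its log2 change of 0.11 ± 0.05 did not pass (SE; limma adjusted p = 0.193). With the GC trend removed it was 0.18 and passed (limma adjusted p = 0.0246). The GBA2 locus overlaps those of CREB3 and TLN1. GALC, the lysosomal galactosylceramidase, overlapped between the groups (6.74 ± 0.43 and 7.19 ± 0.66 FPKM). CERK, which phosphorylates ceramide, was lower in all 3 miR-424 libraries (10.2, 10.4 and 10.2 FPKM) than in EV libraries (11.6, 11.2 and 11.2 FPKM) and had a limma adjusted p of 0.0882.

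Sphingosine and S1P enzymes gave no call in limma among 4 tested members, of which SPHK2 had an unadjusted p of 0.0142. SPHK1, the cytosolic sphingosine kinase, read 11.7, 12.7 and 11.7 FPKM in EV against 12.8, 11.8 and 15.3 FPKM in miR-424 replicates 1, 2 and 3, so that only replicate 3 was high. SPHK2, the kinase found also in the nucleus, read 6.09, 5.59 and 5.46 FPKM and 4.85, 5.04 and 5.05 FPKM. All miR-424 values of SPHK2 were lower, by 12.9% in the mean, with a limma adjusted p of 0.105, and its locus overlaps that of RPL18, an abundant ribosomal protein gene. The S1P lyase SGPL1, with 2 seed matches, was at 6.42 ± 0.13 and 6.64 ± 0.31 FPKM (SD, n = 3; 95% interval of the log2 change -0.07 to 0.15). The S1P phosphatase SGPP1 was at 8.70 ± 0.40 and 8.25 ± 1.2 FPKM, and SGPP2 was not tested at a mean of 0.0667 FPKM.

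S1P receptors are G protein-coupled, and S1PR3 supplied nearly all of their FPKM. S1PR3, whose value is shared with C9orf47 in a merged locus, read 31.1, 29.1 and 29.5 FPKM in EV against 31.0, 30.6 and 29.7 FPKM in miR-424 replicates 1, 2 and 3. This was 92.9% ± 0.66 of the FPKM of the 4 receptor genes in EV and 91.9% ± 0.57 in miR-424 cells (SD, n = 3). S1PR1, the receptor best known from lymphocyte traffic and blood vessels, read 0.768, 0.878 and 0.948 FPKM in EV against 1.55, 1.43 and 1.18 FPKM in miR-424 replicates 1, 2 and 3. The groups did not overlap, and the ratio of the means was 1.61. The log2 change was 0.35 ± 0.07 (SE; limma adjusted p = 0.0338), 0.62 with a pseudocount of 0.1, and the call ended without a filter on low values (0.0514), with the replicate block (0.0935) and without any 1 library (0.0975 to 0.149) other than miR-424 replicate 3. S1PR2 (0.852 ± 0.092 and 0.794 ± 0.069 FPKM) and S1PR5 (0.560 ± 0.018 and 0.5 ± 0.039 FPKM) were under the minimum.

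Separation of the groups was common among the members and among all loci. Of the 31 tested members other than SMPD1 and S1PR1, 3 were higher and 9 lower in every miR-424 library than in any EV library (38.7%), against 33.5% of all tested loci, of which 6.59% were higher and 26.9% lower. Without miR-424 replicate 3, 8 of these 31 were called higher and 7 lower. The members added on the higher side were SPTLC2, ORMDL1, CERS2, DEGS1, B4GALT6, GBA2 and GALC, and on the lower side SPTLC1, KDSR, ORMDL3, SPHK2 and CERK. At that setting 14.9% of all tested loci were called higher and 22.2% lower, and the GC trend that replicates 1 and 2 share cannot be told apart from the groups there. With all libraries and the GC trend removed, 3 of the 31 were called higher and 4 lower, beside 5.9% and 7.24% of loci. With both changes together 6 were called higher and 4 lower, beside 14.4% and 15.1% of loci.

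A further 33 genes that feed or extend the pathway were read from the same fit, and 24 of them were tested. A4GALT reached the minimum for testing only through the EV group and is left out of the counts, as S1PR1 was. Of the other 23, limma called none higher, and it called 3 lower (13.0%, against 6.32% of all tested loci), B4GALNT1, PPAP2A and TECR. HACD3 was higher with an unadjusted limma p of 0.0121 and did not pass (limma adjusted p = 0.0958). ALDH3A2, ELOVL5, ST3GAL5 and PPAP2C were lower with an unadjusted limma p of 0.00469, 0.00647, 0.0125 and 0.0175. They did not pass either (limma adjusted p of 0.0561 to 0.117). The median log2 change of the 23 was -0.07.

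B4GALNT1 and A4GALT act downstream of lactosylceramide, B4GALNT1 in the making of complex gangliosides such as GM2 and A4GALT in that of globosides. B4GALNT1 read 5.99, 5.96 and 6.10 FPKM in EV against 4.25, 3.75 and 4.05 FPKM in miR-424 replicates 1, 2 and 3. It fell by 33.2%, with a log2 change of -0.49 ± 0.05 (SE; limma adjusted p = 0.00467). All 15 other settings called it (adjusted p of 0.000591 to 0.0456). A4GALT read 1.59, 1.51 and 1.72 FPKM in EV against 1.06, 0.766 and 0.780 FPKM in miR-424 cells, a log2 change of -0.48 ± 0.07 (SE). A4GALT reached the minimum for testing only through the EV group, so its values are a description and its test is not used. It did not pass without EV replicate 1, 2 or 3 (limma adjusted p = 0.0764, 0.0675 and 0.0797). The groups did not overlap in either gene. UGCG, at the entry to glycosphingolipids, rose while B4GALNT1 fell. The glycosphingolipid genes B4GALT5, B4GALT6 and B3GNT5 had log2 changes of -0.1, 0.12 and -0.07 and did not pass. The transcripts of B4GALNT1 and A4GALT are 61.9% and 64.7% GC, and B4GALNT1 passed with the GC trend removed. ST3GAL5, which makes the ganglioside GM3, was at 2.89 ± 0.20 and 2.18 ± 0.36 FPKM (SD, n = 3) and did not pass (limma adjusted p = 0.0974).

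PPAP2A (now PLPP1), a cell-surface phosphatase of lipid phosphates including S1P, read 6.64, 6.83 and 6.80 FPKM in EV against 5.08, 4.82 and 5.54 FPKM in miR-424 replicates 1, 2 and 3. It fell by 23.9% with no overlap (log2 change -0.34 ± 0.05, SE; limma adjusted p = 0.0161). Of 15 other settings 8 called it (adjusted p of 0.000473 to 0.0983). The call ended without EV replicate 1, 2 or 3 (0.0858, 0.0983 and 0.0965), without miR-424 replicate 1 (0.0639), with the replicate block (0.0512), with quantile normalization (0.0717) and with median-of-ratios scaling (0.0598; all limma adjusted p). Its 3' UTR of 352 nt holds 2 matches that overlap each other, the second of them followed by an A. That match is shown here because this UTR is as short as that of SMPD1. Among the other tested neighbouring genes, COL4A3BP, ST3GAL5, ELOVL6, PPAP2B and HACD3 also had a TGCTGCT match, and none of them passed. Their log2 changes ran from -0.29 in ST3GAL5 to 0.15 in HACD3. B4GALNT1 and TECR, which passed, and A4GALT, which is left out of the counts, had no match in the longest 3' UTR. The PPAP2A locus overlaps that of SKIV2L2, at a mean of 25.6 FPKM against 5.95 FPKM for PPAP2A, and may share reads with it.
PPAP2A, second match, chr5:55425085-55425107, minus strand: ttaaagacttctgcTGCTGCTat

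TECR, the last enzyme of the cycle that elongates very long fatty acids, fell by 13.3%, from 82.4, 77.8 and 81.8 FPKM to 71.8, 68.0 and 70.1 FPKM (log2 change -0.20 ± 0.04, SE; limma adjusted p = 0.0331). Its locus also carries MIR639. The call passed in 6 of 15 alternative settings, and it held without miR-424 replicate 3 but not without any other single library (limma adjusted p of 0.0778 to 0.165). The elongase ELOVL5 was at 114 ± 1.83 and 97.9 ± 7.29 FPKM (limma adjusted p = 0.0660). PSAP, the precursor of the saposins that assist lysosomal sphingolipid enzymes, was the highest of these genes and differed little, with 305, 297 and 305 FPKM in EV against 298, 291 and 303 FPKM in miR-424 replicates 1, 2 and 3 (95% interval of the log2 change -0.11 to 0.06).

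**Figure D5:**
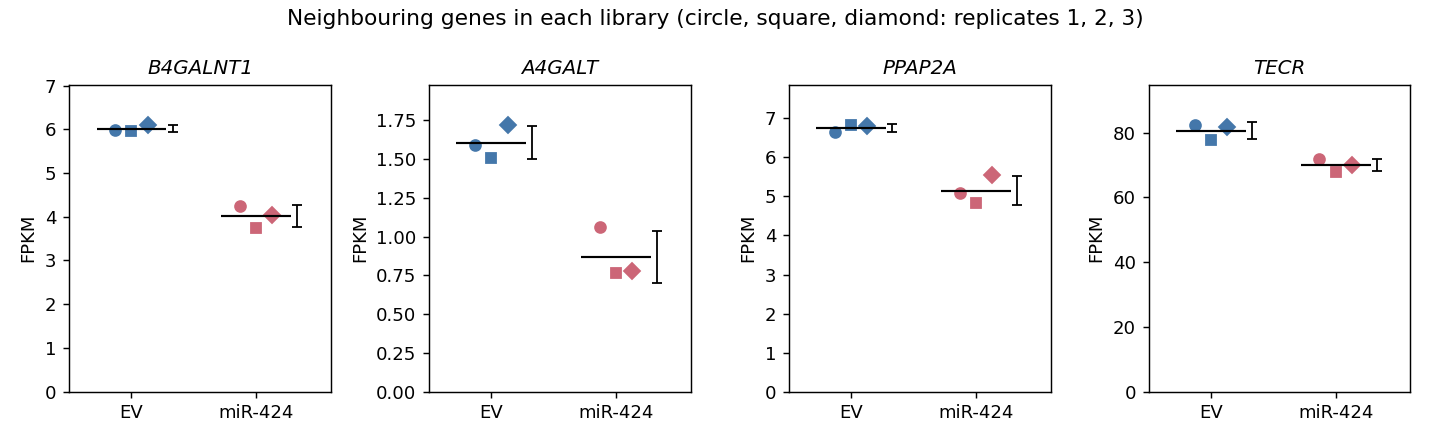
FPKM (y axes, from 0) of B4GALNT1, A4GALT, PPAP2A and TECR in each library of EV (blue) and miR-424 (red) cells; symbols are replicates 1 to 3, horizontal lines are means and bars the SD (n = 3). The EV values lie above the miR-424 values in each panel, with B4GALNT1 at 5.96 to 6.10 against 3.75 to 4.25 FPKM.

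Transcript GC content is given beside these results because the libraries differed by it, and its part in them was not tested. Among the genes lower in miR-424 cells, SMPD1, SMPD4, CERS4, B4GALNT1, A4GALT and TECR have transcripts over 60% GC and PPAP2A one of 50.3%. Among those higher, UGCG has one of 40.9% and S1PR1 one of 48.9%. With the GC trend removed the log2 change went from -0.85 to -0.77 for SMPD1, from -0.20 to -0.12 for both SMPD4 and TECR, and from -0.35 to -0.27 for CERS4. At that setting SMPD4 lay just under the threshold (limma adjusted p = 0.0406) and TECR and CERS4 over it (0.0639 and 0.0878). B4GALNT1 was at -0.40, PPAP2A at -0.29 and UGCG at 0.29, and each of these passed. A4GALT was at -0.38 and S1PR1 at 0.40, both given as a description because they are left out of the counts. Of the GC-rich members that did not pass, SPHK2 (65.8%) went from -0.17 to -0.06, SPHK1 (66.1%) from 0.13 to 0.24 and SMPD2 (60.8%) from -0.05 to 0.04.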

How the data were processed

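RNA sequencing of 6 MCF12A samples was read from 1 deposited table of FPKM values, made by the authors with 1 column per sample. The submitters' processing notes list Cuffdiff, Cufflinks 1.3.0, TopHat 1.4.1, GRCh37 and hg19, without saying what each was used for. Annotation, strand use, read numbers and scaling are not stated. Low FPKM values were searched for steps of whole fragments, but only 3.9% to 12.2% of low loci lay on the best step, so depth was not recovered and no count test or interval of counting error was used.

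Groups and replicates came from the sample titles. Members were found by symbol, CERS genes also as LASS. The fit used limma 3.58.1 in R 4.3.3 on log2(FPKM + 1) of the 11574 loci whose mean reached 1 FPKM (trended prior variance, no covariate, two-sided, Benjamini-Hochberg over all loci, threshold 0.05). The script was tested on simulated data. An exact permutation test of 3 against 3 cannot go below p = 0.1 and was not used. Members and lists were chosen with earlier results of these data known. Per-sample values are given for SMPD1, members past the threshold and the highest member of each role, and other members are named with their change. In the neighbouring list, genes past the threshold and the 2 highest are named. Per-sample values of further members, and ST3GAL5, were chosen after their values were seen.

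GENCODE 29 transcripts (98.2% of tested loci matched by RefSeq identifier or symbol) gave GC content and 3' UTRs, the longest per gene. Alternatives were another pseudocount (0.1), no filter or a minimum of 5 FPKM, median-of-ratios scaling, quantile normalization, no variance trend, a replicate block, removal of the GC trend (loess per library) and leaving out each library. Removing the GC trend and miR-424 replicate 3 together was added after seeing the data.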

Additional observations from a re-analysis of the deposited data

How the results depend on the processing

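Counts leave out SMPD1, S1PR1 and A4GALT. The loci tested were 11574 as reported, 19342 with no filter and 8305 with a minimum of 5 FPKM. The members counted among them were 31, 39 and 24, so counts at these settings come from unlike sets. CERS4 was not tested at the minimum of 5 FPKM. For the members, 1 higher and 2 lower as reported became 1 and 1 with no filter, 1 and 1 with a minimum of 5 FPKM, 2 and 0 with quantile normalization, 2 and 1 with median-of-ratios scaling, 3 and 4 with the GC trend removed, and 0 to 8 and 0 to 7 without 1 library. Both directions had 0 calls without EV replicate 1, 2 or 3. For the neighbouring genes, 0 higher and 3 lower became 1 and 2 with quantile normalization, 1 and 1 with median-of-ratios scaling, 1 and 4 with the GC trend removed, and 0 to 2 and 1 to 6 without 1 library. For all loci, 144 higher and 731 lower became 107 and 468 with a minimum of 5 FPKM, 319 and 447 with quantile normalization, 308 and 495 with median-of-ratios scaling, 683 and 838 with the GC trend removed, and 31 to 1728 and 77 to 2574 without 1 library. The highest counts came without miR-424 replicate 3 and the cause was not tested. Removing the GC trend and miR-424 replicate 3 together gave 6 and 4 members, 2 and 7 neighbouring genes, and 1666 and 1750 loci.

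The replicate block gave 1 member higher and 1 lower, 0 and 1 neighbouring genes, and 79 and 270 loci. Replicate numbers are shared only as numbers: deviations of same-numbered samples correlated at 0.051, 0.152 and 0.127, and EV replicate 1 correlated better with miR-424 replicate 2 (0.061).

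The log2 change of SMPD1 was -1.0 with a pseudocount of 0.1, -0.79 with quantile normalization and -0.77 with the GC trend removed. These values are a description only, since the set was drawn up around its known fall. No called member changed direction in any of the 15 alternatives. A seed match defined as GCTGCTA was in 18.8% of members and 10.4% of loci, and TGCTGCT in the shortest UTR in 12.5% and 12.3%. Members with a TGCTGCT match in the shortest UTR include SMPD1. The number of fragments is unknown, so calls near 1 FPKM, such as S1PR1, rest on values of unknown depth.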
